A study of Mus musculus with 6 samples.

Results

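The genes described here run the step from dividing precursor to newborn sensory neuron. They are the proneural transcription factors Neurog1, Neurog2, Neurod1 and Neurod4, the Notch ligands Dll1 and Dll3, the receptor Notch1, the enzyme Mfng, and the transcription factors Hes5 and Hes6. The 10 genes were chosen by name, all 10 were found among the 24264 genes of the deposited expression table, and all 10 passed the filter on low values. Expression was measured by RNA sequencing of lumbar dorsal root ganglia, which house the sensory neurons of trunk and hindlimb, at embryonic stage E12.5. The 3 miR-CKO libraries came from embryos that were homozygous for a floxed miR-183-96-182 cluster and carried Wnt1-Cre. This recombinase is expressed in dorsal neural tube and neural crest, from which ganglion neurons and glia descend. Of the 3 controls, 1 and 3 were titled as carrying the Cre and 2 was titled WT. Whether any control carried a floxed allele is not stated. All were on a mixed C57/Bl6 x 129/SvEv background, and no label says whether a library holds the ganglia of a single embryo. P-values therefore measure the spread between these libraries.

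Proneural factors are basic helix-loop-helix proteins that bind E-box DNA and commit a precursor to become a neuron. In the ganglia Neurog2 acts in an early wave of neurogenesis and Neurog1 in a later one, and both turn on Neurod genes, which carry differentiation forward. They also turn on Dll1, whose product activates Notch receptors on neighbouring cells. Cleaved Notch joins the DNA-binding protein RBPJ and induces Hes repressors such as Hes5, which hold the neighbour in the precursor state. Dll3 is a divergent ligand that acts inside the cell that makes it, and Mfng is a glycosyltransferase that adds sugars to Notch and so changes its response to ligands. Hes6 is a Hes relative that counters Hes repressors and is found in cells entering differentiation.

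The deleted microRNAs share most of their seed, the part that pairs with target messages. Their mature sequences (RefSeq, GRCm38.p6, chromosome 6, minus strand) are shown with the seed, bases 2 to 8, in capitals, because these letters define the sites searched for in the 10 messages.
mmu-miR-182-5p: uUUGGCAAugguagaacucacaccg
mmu-miR-96-5p: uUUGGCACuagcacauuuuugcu
mmu-miR-183-5p: uAUGGCACugguagaauucacu

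Sites were 8-base and 7-base matches in the 3 prime UTR of the main GENCODE M21 transcript, read from the transcript's own strand. An 8-base match pairs with bases 2 to 8 and ends in an A. A 7-base match either pairs with bases 2 to 8, or pairs with bases 2 to 7 and ends in an A. Of the 10 genes, 3 carried a site (30%), against 32.8% of the 11057 tested genes with an annotated 3 prime UTR. Neurod4 had the only 8-base match, for miR-96, on chromosome 10 at 130270123 to 130270130 (mm10, minus strand). Mfng had a 7-base miR-96 match on chromosome 15 at 78756142 to 78756148 (minus strand). Notch1 had a 7-base match shared by miR-96 and miR-182 on chromosome 2 at 26458622 to 26458628 (minus strand). This shared match pairs with bases 2 to 7 and ends in an A. Notch1 also had a 7-base miR-183 match at 26458110 to 26458116 (minus strand). The sites are shown with their match in capitals and up to 8 flanking bases, as they are the places where loss of the cluster could act directly on these messages.
Neurod4: ttccaatgGTGCCAAAgattaatt
Mfng: aggctcagGTGCCAAttgcaacc
Notch1 shared site: cacctgacTGCCAAAgggctcca
Notch1 miR-183 site: cagtgtctGTGCCATgcctaata

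None of the other 7 genes, Neurog1, Neurog2, Neurod1, Dll1, Dll3, Hes5 and Hes6, had a match in the transcript searched. Their 3 prime UTRs are between 368 bases (Dll3) and 1443 bases (Neurod1) long, so this covers only the annotated end of each message.

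Each library held an estimated 20.1 to 24.1 M (mega) reads. The microRNA genes Mir183, Mir96 and Mir182 were listed at 0 in all 6 libraries, and polyadenylated RNA holds few such precursors, so they do not check the labels. Xist was at 96.0 RPKM in miR-CKO 1 and at no more than 0.0890 RPKM elsewhere, so that library stands apart in this X-inactivation RNA. Expression is given as RPKM, read counts scaled to transcript length and to library size. The summed level of 14 sensory neuron markers, among them Isl1, Pou4f1 and Prph, was 1968 to 2465 RPKM in controls and 1937 to 2778 RPKM in miR-CKO. Summed skeletal muscle markers were at 152 and 115 RPKM in controls 2 and 3 and at 22.7 RPKM or less in each of the other 4 libraries. A list of 28 spinal cord markers summed to 64.0 RPKM in miR-CKO 3 and to between 7.22 and 16.1 RPKM in the other 5 libraries. Neural crest progenitor markers summed to 1009 to 1271 RPKM over all libraries, mesenchyme to 209 to 425, endothelium to 100.6 to 147 and sympathetic neuron markers to 14.5 to 39.4 RPKM. Most of the neural crest sum was Fabp7 (666 to 923 RPKM), so it says little about the lower genes. Of its 12 genes, 5 were highest in miR-CKO 3. Among them Sox9 ranged from 0.998 to 9.18, Tfap2b from 2.30 to 16.2 and Pax3 from 2.99 to 12.8 RPKM. Sox10, Foxd3, Erbb3 and Ednrb were lowest in that library. Fewer cells of a type and less RNA per cell cannot be told apart in such bulk samples.

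None of the 10 genes passed the test between miR-CKO and control. Of the 10 genes, 0 passed (limma across 13118 genes, Benjamini-Hochberg adjusted p under 0.05), where 0.0610% of all genes did, and 0 had an unadjusted p under 0.05, as 5.16% of all genes had. The groups overlapped for each of the 10, while they were separate for 10.9% of all genes. The log2 difference was above 0 for 9 of the 10 genes, with a median of 0.14, while 40.4% of all genes tested lay above 0 and their median was -0.024. With median centring 9 of the 10 still lay above 0, and 52.1% of all genes did. With a single library left out the count ran from 6 to 10 of the 10 genes. It was 6 without control 3 (44.0% of all genes above 0) and 6 without miR-CKO 2 (39.6%). It was 8 without control 1 (37.2%) and 10 without control 2 (45.0%). Of 12 marker genes of dividing cells, 11 lay above 0 with all 6 libraries, with a median of 0.13. Several of the 10 genes varied together over the libraries, so their directions are not separate observations. Pearson's r was 0.96 for Neurog1 with Hes6 and for Dll1 with Dll3, but -0.52 for Neurod1 with Dll3. Each difference was taken in log2(RPKM + 1), a scale that makes those of low genes such as Neurog2 smaller.

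**Figure D1:**
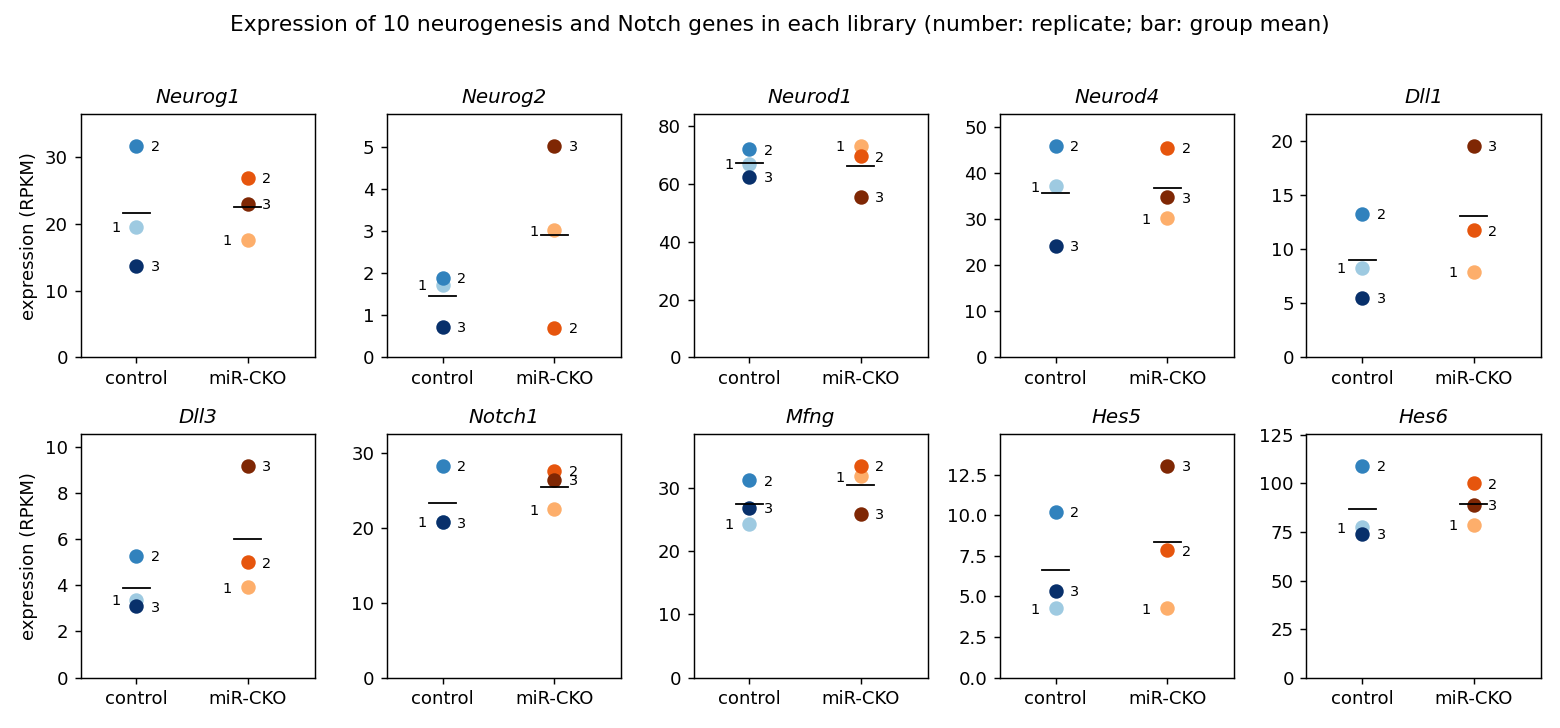
Expression of each of the 10 genes (RPKM, linear axes from 0) in the 3 control and 3 miR-CKO libraries; each point is 1 library with its replicate number and bars are group means. The groups overlap in every panel, and miR-CKO 3 is the highest library for Neurog2, Dll1, Dll3 and Hes5.

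Ordered by mean level over the 6 libraries, Hes6 was highest at 88.0 ± 14.0 RPKM and Neurod1 next at 66.6 ± 6.59 RPKM (SD, n = 6). The lowest Hes6 library lay above the highest Neurod1 library, and the lowest Neurod1 library above the highest Neurod4 library. Below them followed Neurod4 (36.3 ± 8.51 RPKM), Mfng (28.9 ± 3.71 RPKM), Notch1 (24.3 ± 3.44 RPKM) and Neurog1 (22.0 ± 6.51 RPKM). The lower levels were those of Dll1 (11.1 ± 5.02 RPKM), Hes5 (7.49 ± 3.56 RPKM), Dll3 (4.96 ± 2.23 RPKM) and Neurog2 (2.19 ± 1.64 RPKM). From Neurod4 downward each gene overlapped its neighbour in this order across libraries. RPKM is a value per length, which allows a rough comparison of levels between genes. The lengths used and the treatment of shared reads were not stated, so the order is approximate.

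Among the proneural genes, Neurog1 measured 19.5, 31.6 and 13.7 RPKM in controls 1, 2 and 3, while the values were 17.6, 26.8 and 23.0 RPKM in miR-CKO 1, 2 and 3. Controls held both its highest and its lowest library, and the log2 difference was 0.11 (SE 0.29, 95% interval -0.58 to 0.80, limma adjusted p = 1.00). It was 0.41 without control 2 and -0.16 without control 3. Neurog2 was at 1.72, 1.89 and 0.737 RPKM in controls and at 3.02, 0.710 and 5.04 RPKM in miR-CKO. The miR-CKO libraries thus held its highest and its lowest value, a 7.09-fold range, the widest of the 10 genes. These values stand for 33 to 233 reads per library. Its log2 difference of 0.53 (SE 0.45, interval -0.54 to 1.61) was 0.13 without miR-CKO 3 and 1.04 without miR-CKO 2. In the fit without miR-CKO 2 the groups of Neurog2 were separate, as were those of 18.5% of all genes. Neurog1 exceeded Neurog2 in every library, by a ratio that ran from 4.56 in miR-CKO 3 and 5.80 in miR-CKO 1 to 37.8 in miR-CKO 2; the control ratios were 11.3, 16.7 and 18.6.

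Neurod1, which carries newborn neurons through differentiation, varied least of the 10 genes. It was at 66.9, 71.9 and 62.5 RPKM in controls and at 73.1, 69.5 and 55.6 RPKM in miR-CKO, and miR-CKO 3 was its lowest library. The log2 difference was -0.030 (SE 0.11, interval -0.30 to 0.24), and 0.088 without miR-CKO 3. Neurod4, a further differentiation factor, was at 37.2, 45.9 and 24.3 RPKM in controls and at 30.2, 45.5 and 34.8 RPKM in miR-CKO. Its highest libraries were control 2 and miR-CKO 2, and its log2 difference was 0.066 (SE 0.24, interval -0.51 to 0.64). This is the gene with the 8-base miR-96 match shown above, and its sign turned without control 3 (-0.18) and without miR-CKO 2 (-0.092). Neurog1 and Neurod4 kept a narrow ratio over the libraries, between 0.525 and 0.689.

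The ligands Dll1 and Dll3 were highest in a single miR-CKO library. Control levels of Dll1 were 8.30, 13.3 and 5.53 RPKM, and its miR-CKO levels were 7.93, 11.8 and 19.6 RPKM. Dll3 was at 3.36, 5.26 and 3.09 RPKM in controls and at 3.92, 4.99 and 9.17 RPKM in miR-CKO. For both genes miR-CKO 3 stood above all other libraries, control 2 and miR-CKO 2 came next, and control 3 was lowest. The log2 difference was 0.48 for Dll1 (SE 0.37, interval -0.40 to 1.36) and 0.47 for Dll3 (SE 0.29, interval -0.21 to 1.16), with a limma adjusted p of 1.00 for each. Without miR-CKO 3 these differences were 0.16 and 0.17, and without miR-CKO 1 they were 0.77 and 0.70. That of Dll1 was also 0.77 without control 2, and 0.21 without control 3. The level of Dll1 relative to Dll3 stayed between 1.79 and 2.52 in the 6 libraries, so the pair moved together.

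The receptor gene Notch1 was at 20.7, 28.2 and 20.7 RPKM in controls and at 22.5, 27.6 and 26.4 RPKM in miR-CKO. Control 2 was the highest library and controls 1 and 3 were the lowest pair, for a log2 difference of 0.14 (SE 0.14, interval -0.19 to 0.46). The difference was 0.28 without control 2, and 0.065 without control 3. Mfng was at 24.3, 31.2 and 26.9 RPKM in controls and at 31.8, 33.4 and 25.9 RPKM in miR-CKO. Here miR-CKO 1 and 2 were above all controls and miR-CKO 3 was below controls 2 and 3. The log2 difference was 0.14 (SE 0.13, interval -0.16 to 0.44). Without miR-CKO 3 it was 0.25 and Mfng was the 1 gene of the set with separate groups, as were 18.8% of all genes in that fit, and without control 1 it was 0.058.

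Hes5, the direct Notch target of the set, was at 4.28, 10.2 and 5.35 RPKM in controls and at 4.26, 7.84 and 13.0 RPKM in miR-CKO. Control 1 and miR-CKO 1 were nearly equal at the bottom of the range, and miR-CKO 3 was at the top. The log2 difference of 0.27 (SE 0.40, interval -0.69 to 1.22) turned to -0.081 without miR-CKO 3. Hes6 was at 77.5, 109 and 73.9 RPKM in controls and at 78.5, 100.1 and 89.1 RPKM in miR-CKO. Its highest libraries were control 2 and miR-CKO 2, and its log2 difference was 0.054 (SE 0.16, interval -0.33 to 0.44). The sign of this small value turned without control 1 (-0.016), control 3 (-0.049) or miR-CKO 2 (-0.031). The ratio of Hes6 to Hes5 lay between 6.84 in miR-CKO 3 and 18.4 in miR-CKO 1.

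The Hes5 promoter differs from the others of the set in its sequence. RefSeq promoters (GRCm38.p6, 250 bases before to 50 after the start) were found for 9 of the 10 genes. The RBPJ core GTGGGAA, searched on both strands, occurred in the promoter of 1 of these 9, Hes5, where it was found at 2 places, with first bases at positions -226 and -83 from the start. In 32851 promoters of this length 6.38% held the core and 0.256% held 2 or more. The copies lie on opposite strands. The promoter is shown because Hes5 is the set's readout of Notch signalling; it lies at chr4:154960673-154960972 (plus strand), and capitals mark the core matches.
Hes5: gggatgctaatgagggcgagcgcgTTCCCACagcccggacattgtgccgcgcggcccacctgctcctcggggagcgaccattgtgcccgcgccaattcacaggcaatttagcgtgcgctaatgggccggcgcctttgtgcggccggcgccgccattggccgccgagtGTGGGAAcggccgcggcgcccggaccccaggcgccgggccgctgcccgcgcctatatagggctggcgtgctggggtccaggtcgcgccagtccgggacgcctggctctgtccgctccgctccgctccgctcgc

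The E-box letters CAGCTG, a form bound by proneural factors, occurred in a promoter of 4 of the 9 genes, Dll1, Dll3, Hes6 and Neurod4, and in 16.3% of all promoters. The N-box letters CACNAG, to which Hes repressors bind, occurred in 6 of the 9 and in 42.5% of all promoters. Dll1, Hes6 and Neurod4 have more than 1 promoter entry. The only entries of Notch1 and of Dll3 lie within the longer GENCODE gene, as does 1 entry each of Dll1 and Hes6.

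**Figure D2:**
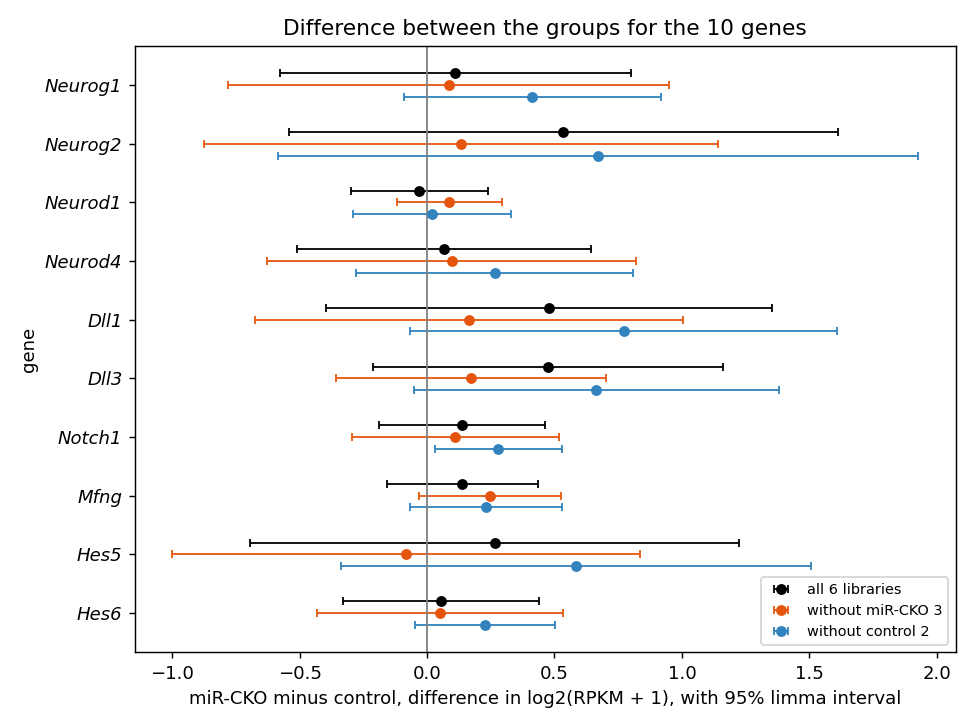
Difference between miR-CKO and control in log2(RPKM + 1) for each gene, with the 95% interval of the limma fit, for all 6 libraries, without miR-CKO 3 and without control 2. With all 6 libraries every interval spans 0, and without miR-CKO 3 the Dll1 difference goes from 0.48 to 0.16 and that of Hes5 from 0.27 to -0.081.

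What these 6 libraries could show differed between genes. For 6 of the 10 genes, Neurog1, Neurod1, Neurod4, Notch1, Hes6 and Mfng, the 95% interval lay within a log2 difference of 1 in either direction. For Neurog2, Dll1, Dll3 and Hes5 the upper bound was above 1. In the comparison with the Cre-carrying controls 1 and 3 alone, all 10 differences were above 0, with a median of 0.35, beside 45.0% of all genes above 0 in that fit, and 0 of the 10 passed. Notch1 alone of the 10 had an unadjusted p under 0.05 there, 0.0334 (limma adjusted p = 0.899), beside 5.04% of all genes. Dll3, Notch1 and Hes6 then had every miR-CKO library above both controls, 3 of the 10 genes, beside 7.66% of all genes in that direction. That comparison rests on 2 control libraries. Control 2, left out there, was the highest control for each of the 10 genes. Its removal therefore raised every difference and made such separation easier to reach.

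Control 2 and miR-CKO 2 resembled each other more than their own groups in several of these genes. Neurog1, Neurod4, Hes6 and Notch1 were highest in control 2 and next highest in miR-CKO 2. All 4 were lowest in control 3. The deviation of control 2 from a gene's mean over all libraries was 0.55 for Neurog1, 0.36 for Neurod4, 0.32 for Hes6 and 0.22 for Notch1 on the log2(RPKM + 1) scale. In miR-CKO 2 it was 0.32, 0.35, 0.20 and 0.18. Summed markers of dividing cells were 560 RPKM in control 2, 524 RPKM in miR-CKO 2 and 611 RPKM in miR-CKO 3, and between 378 and 402 RPKM in the other 3 libraries. The part of cell division in these levels was not tested.

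**Figure D3:**
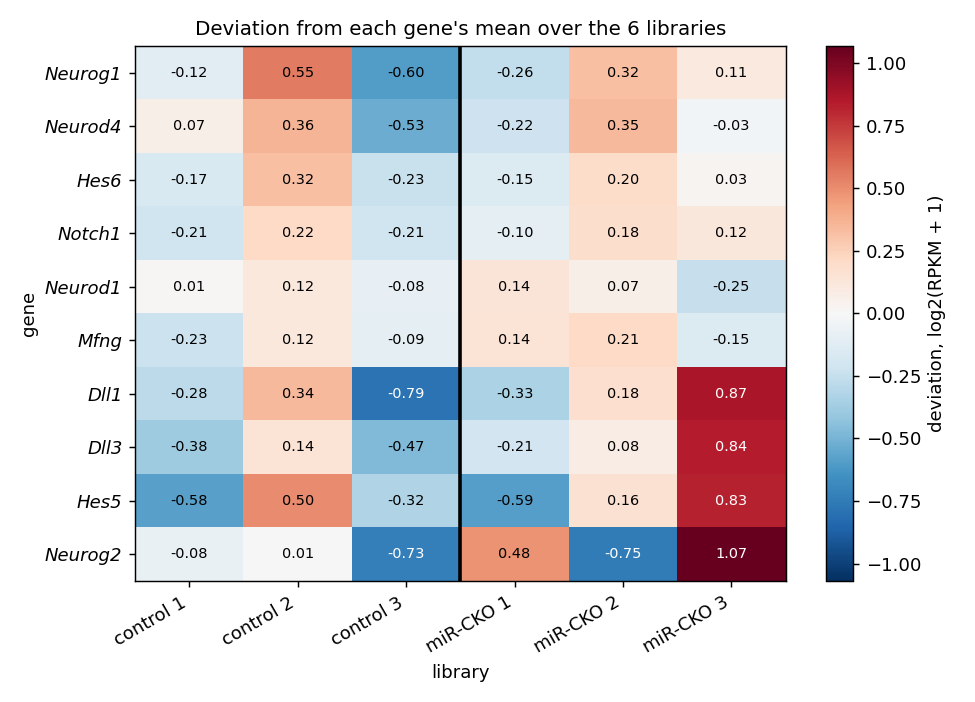
Deviation of each library (columns) from the mean of a gene over all 6 libraries (rows), in log2(RPKM + 1); red is above and blue below the mean, and the line parts controls from miR-CKO. Neurog1, Neurod4, Hes6 and Notch1 are above their mean in control 2 and miR-CKO 2, while Dll1, Dll3, Hes5 and Neurog2 have their highest value in miR-CKO 3 (0.83 to 1.07).

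In miR-CKO 3, genes of the spinal cord stood beside the high levels of Dll1 and Dll3. The ligand genes Jag1 and Jag2 were lowest in miR-CKO 3, at 16.0 and 4.50 RPKM. Relative to the mean of the other 5 libraries, this library was at 3.11-fold for Neurog2, 2.22-fold for Dll3, 2.09-fold for Dll1 and 2.04-fold for Hes5. Neurog1, Hes6, Neurod4, Mfng and Neurod1 were at 1.05, 1.01, 0.950, 0.876 and 0.808 of that mean. Of the 28 spinal cord markers, 12 were highest in miR-CKO 3, 12 were over 3-fold the mean of the others there, and the summed level was 6.44 times that mean. Msx3, a homeodomain gene of the dorsal spinal cord, was at 19.7 RPKM there and at 0.0778 to 3.42 RPKM elsewhere. Lhx1, which marks spinal interneurons, was at 9.07 RPKM there and at 0.314 to 1.90 RPKM elsewhere. Pax6 was at 3.59 RPKM there and at 0.435 to 1.50 RPKM elsewhere, and Wnt1, a roof plate gene, at 4.56 and at 0.147 to 1.88 RPKM. The motor neuron gene Mnx1 was at 0 in all 6 libraries, and the floor plate genes Shh and Foxa2 were at 0.0905 and 0 RPKM in miR-CKO 3. Lfng, a sister enzyme of Mfng, was at 6.01 RPKM in miR-CKO 3 and at 2.08 to 3.09 RPKM in the others. Without miR-CKO 3 the log2 difference of Lfng went from 0.32 to 0.0030. The part of spinal cord RNA in the levels of Dll1, Dll3, Hes5 and Neurog2 was not tested.

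**Figure D4:**
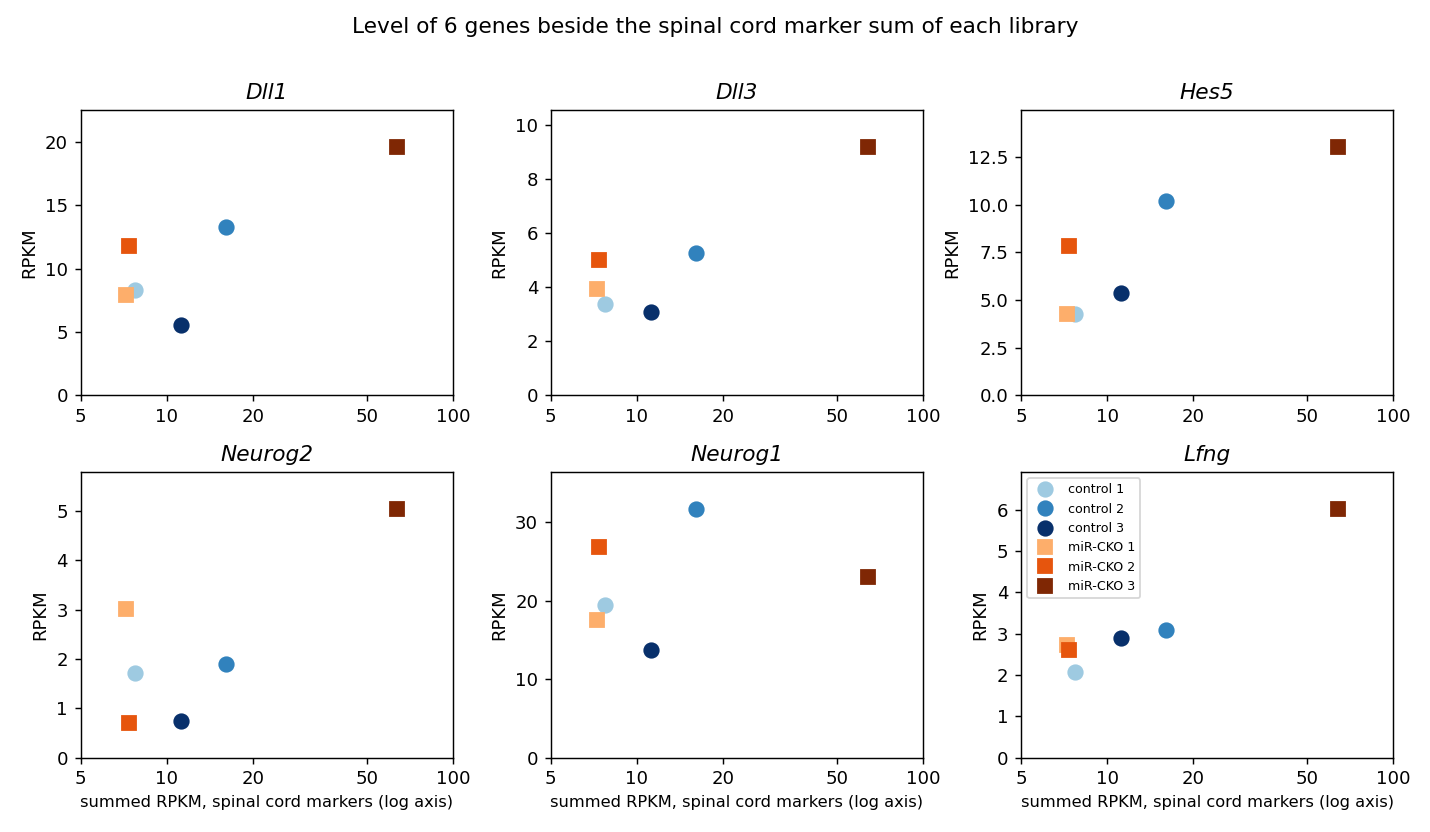
Expression (RPKM, vertical axes from 0) of Dll1, Dll3, Hes5, Neurog2, Neurog1 and Lfng in each library beside the summed RPKM of 28 spinal cord markers (log axis); circles are controls and squares miR-CKO. The library at 64.0 RPKM, miR-CKO 3, is highest in 5 of the 6 panels but not for Neurog1, which is highest in control 2.

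No other gene of the Notch pathway passed the test. Of 41 further Notch genes, 39 were tested and 0 passed, with 16 differences above and 23 below 0 and a median of -0.036. An unadjusted p under 0.05 was found for 1 of the 39. The receptors Notch2 and Notch3 had mean levels of 8.26 and 8.98 RPKM in controls and 7.19 and 8.51 RPKM in miR-CKO, and Notch4, an endothelial receptor, 2.02 and 1.63 RPKM. The log2 difference of Notch2 was -0.17. Of the ligands, Jag1 was at 17.6 and 17.2 RPKM, Jag2 at 6.65 and 5.69 RPKM (log2 difference -0.18) and Dll4, made mainly by endothelium, at 1.34 and 1.40 RPKM. Jag1 was thus at a higher mean level than Dll1 in both groups.

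Of the enzymes that modify Notch, Poglut1, which adds glucose, had separate groups, at 32.1 ± 0.902 RPKM in controls and 28.2 ± 0.494 RPKM in miR-CKO (SD, n = 3 each, log2 difference -0.18, limma adjusted p = 0.746). Rfng was at 27.3 and 25.7 RPKM, Pofut1 at 10.1 and 9.43 RPKM, and Lfng at 2.68 and 3.78 RPKM (log2 difference 0.32). The gamma-secretase subunits Ncstn, Aph1a, Aph1b and Psen2, which cut Notch free from the membrane, had mean levels of 43.8 and 41.3, 23.2 and 22.2, 10.2 and 9.40, and 3.80 and 4.30 RPKM in controls and miR-CKO. The Aph1b log2 difference was -0.11. Among regulators of ligand and receptor turnover, the Deltex gene Dtx4 was at 18.2 and 22.3 RPKM (log2 difference 0.27), the ubiquitin ligase gene Fbxw7 at 12.4 and 14.4, Numb at 11.8 and 11.2, and Dtx2 at 5.20 and 4.90 RPKM.

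In the nucleus, the coactivator Maml3 was at 5.49 and 4.73 RPKM (log2 difference -0.19), Maml1 at 9.49 and 9.17, and the corepressor gene Spen at 9.05 and 9.91 RPKM. The Notch target genes Hey1, Hey2, Heyl and Nrarp had higher mean levels than Hes5 in both groups. Hey1 was at 24.1 and 23.5 RPKM, Hey2 at 18.9 and 16.7 (log2 difference -0.17), and Nrarp, a feedback inhibitor, at 20.3 and 23.7 RPKM. Hes1 was at 8.82 and 8.34 RPKM. Of these 5 genes, 2 had differences above and 3 below 0.

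Among other neurogenic genes, 0 passed of 5 further proneural genes, 7 helix-loop-helix partners and 10 neurogenic partners tested. An unadjusted p under 0.05 was found for 1 proneural gene and 1 neurogenic partner. Nhlh2, a factor of newborn neurons, was at 77.5 ± 4.21 RPKM in controls and 95.8 ± 9.50 RPKM in miR-CKO, with separate groups (log2 difference 0.30, limma adjusted p = 0.679). Its relative Nhlh1 was at 96.7 and 82.7 RPKM. Cbfa2t3, a corepressor that acts with Neurog2, also had separate groups, at 3.64 ± 0.591 and 5.51 ± 0.939 RPKM (log2 difference 0.49, limma adjusted p = 0.666). Neurod6 was at 1.37 and 1.50 RPKM. The Id genes, whose products block helix-loop-helix factors, were represented by Id3 at 50.7 and 41.5 RPKM (log2 difference -0.25, but -0.52 without control 1 and -0.11 without control 3) and Id2 at 44.0 and 41.4 RPKM. The partner genes Tcf3 and Tcf4 were at 27.3 and 24.6 and at 20.1 and 23.8 RPKM. The neuronal genes St18, Myt1l and Srrm4 were at 11.5 and 10.8, 6.06 and 4.53, and 23.1 and 24.6 RPKM.

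The genes whose profile over the 6 libraries was most like that of each gene were found among all tested genes with a mean of 5 RPKM or more. They are given as a description by Pearson's r over 6 libraries. Dll1 was most like Cbx5, a heterochromatin protein gene (r = 0.996), with Kpna4 and Phf6 next. Dll3 was most like Plk3 (0.998) and E2f1, a cell cycle transcription factor (0.995), with Brd8 next. Hes5 was most like Crnkl1 (0.997), and Nuf2, a kinetochore gene, was among its next genes. Hes6 was most like Ptk2 (0.996) and Parp1, a DNA repair gene (0.993), and shared Ddx39 with Neurog1, whose closest genes were Aifm1 (0.986) and Hdac8. Notch1 had 4930471M23Rik, Amotl2 and Ctps, Mfng had Cenpt, Tcf20 and Bcat2, Neurod1 had Pou2f1, Sox13 and Ccrn4l, Neurod4 had Fhdc1, Fam107a and a Pde4b locus, and Neurog2 had Gtf3c6, Igf1r and Rgag4. With so few libraries many genes fit alike: r was above 0.9 for 347 genes with Dll1 and for 607 with Hes5, but for 7 with Neurod1.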

How the data were processed

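RNA sequencing was available for 6 libraries, 3 control and 3 miR-CKO. The submitters' processing notes name Bowtie and mm10. The Bowtie version, how reads were counted, the gene models and the treatment of shared reads were not stated. The authors deposited a table of RPKM-like values with decimal commas and no named unit. It was read as RPKM because, in 94.2% of the 16634 genes above 0 everywhere, the deposited values were whole multiples of a step within 0.01 read. Longer transcripts had smaller steps (Spearman rho -0.905 over 1829 single-transcript genes, as a description). FPKM would look the same. Depth and reads per gene were estimated from the steps; whole reads were found for 9 of the 10 genes, Notch1 excepted.

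Values were transformed to log2(RPKM + 1), genes with 1 RPKM in at least 3 libraries were kept, and the groups were compared with limma 3.58.1 (R 4.3.3, trend and robust empirical Bayes, Benjamini-Hochberg, threshold 0.05). The script was tested on simulated data first. The genes and lists were chosen with earlier results of these data known. All 10 genes are named, with up to 4 genes of smallest p per pathway list, of which some are not reported here; marker lists (neural crest, sensory and sympathetic neurons, spinal cord, muscle, mesenchyme, endothelium, cell cycle) were summed per library. Alternatives covered the pseudocount, filter, scaling, variance model, replicate block and each library left out. Python 3.11.15, pandas 2.3.3 and matplotlib 3.10.9 were used.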

Additional observations from a re-analysis of the deposited data

How the results depend on the processing

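Under all 15 alternatives 0 of the 10 genes and 0 of the further pathway genes passed; the lowest limma adjusted p of any of the 10 was 0.787, for Dll3 without miR-CKO 1. Differences for Neurog2, Dll1, Dll3, Notch1 and Mfng stayed above 0 in every alternative that tested them. An unadjusted limma p under 0.05 was found for 1 of the 10 without control 2, where 655 of 12998 genes had one. It was also found for 1 without miR-CKO 1 (822 of 13039 genes) and for 1 without miR-CKO 2 (510 of 13054 genes). The number of all genes past the threshold went from 8 to 2 with median centring, to 0 with upper quartile scaling, to 0 without trend and robust settings, to 0 without controls 2 and 3 together, and to between 0 and 2 with a single library left out. With the replicate block it was 0. Where it was 0, limma gave 395 to 847 genes at an unadjusted p under 0.05. Same-numbered libraries are not paired by the labels, and their deviations correlated at 0.36, 0.33 and -0.22 for numbers 1 to 3. Pairs of unlike number ranged more widely, from -0.70 (control 2 with miR-CKO 1) to 0.52 (control 2 with miR-CKO 3). Groups were separate for 0 of the 10 genes, for 0 to 3 of them with a library left out, where 16.3% to 25.9% of all genes were (19.6% in the fit with 3, without control 2), and for 4 (Dll3, Notch1, Hes6 and Mfng) without controls 2 and 3, where 1 control remains and 43.9% of all genes are separate.

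With a single library left out the difference ranged from -0.16 to 0.41 for Neurog1, -0.11 to 0.088 for Neurod1, -0.18 to 0.27 for Neurod4, -0.081 to 0.63 for Hes5, -0.049 to 0.23 for Hes6 and -0.34 to 0.0088 for Jag2. It ranged from 0.13 to 1.04 for Neurog2, 0.16 to 0.77 for Dll1, 0.17 to 0.70 for Dll3, 0.065 to 0.28 for Notch1 and 0.058 to 0.25 for Mfng. For other genes it was -0.28 (without control 1) to -0.085 (without control 2) for Notch2, -0.30 (without miR-CKO 1) to -0.080 (without miR-CKO 3) for Hey2, -0.28 (without miR-CKO 1) to -0.13 for Maml3, -0.18 (without control 2) to -0.040 (without control 1) for Aph1b, 0.12 (without miR-CKO 3) to 0.34 for Dtx4 and -0.52 to -0.11 for Id3. Without controls 2 and 3 it was -0.032 for Neurod4, 0.041 for Notch2, 0.12 for Jag2 and 0.30 for Id3, so these turned sign; why was not tested. Median centring moved the median of all genes from -0.024 to 0.0054. Neurog2, with 33 to 233 reads, and Hes5, with 122 to 357, are the most limited by depth.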
